A study of Mus musculus with 57 samples.

Results

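The 34 genes described here encode the presynaptic vesicle and release machinery, and they were taken as the rows of the deposited expression table whose Ensembl identifiers map to a fixed list of mouse symbols. All 34 were found among the 18088 genes of the table. By role they comprise 9 vesicle proteins, 2 vesicular glutamate transporters, 5 calcium sensors, 4 SNAREs, 3 complexins, 7 active zone proteins and 4 proteins of disassembly and recycling.

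The animals were C57BL/6J mice, either wild type (WT) or carrying 1 Shank3 delta C allele (heterozygous, HT). The Shank3 protein is a scaffold on the postsynaptic side. Pups of both sexes received vehicle, fluoxetine, a serotonin reuptake inhibitor, or lithium, a mood stabiliser, through the milk of the dam from postnatal day 3 to day 24, and the prefrontal cortex was taken on day 25. The dose that reached a pup and the litter of each mouse are not given in the labels, so p-values treat every mouse as independent. Of the 12 groups (2 genotypes, 3 treatments and 2 sexes), 9 held 5 libraries. WT lithium females and HT lithium males had 4 each, and HT vehicle males had 3, which gave 56 libraries in all.

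Neurotransmitter is packed into synaptic vesicles by vesicular transporters, and the vesicles are docked and primed at the active zone by scaffolds such as Bassoon, Piccolo and the RIM proteins and by Munc13 priming factors. A SNARE complex of synaptobrevin, syntaxin and SNAP-25 drives fusion, with complexins and synaptotagmin calcium sensors coupling it to the calcium signal. The complex is then taken apart by NSF, and membrane is retrieved by dynamin, endophilin and synaptojanin for another round of use. In the prefrontal cortex most such synapses are glutamatergic.

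Recovered reads numbered 22984556 to 35969254 per library. The fewest reads behind any member in any library were 144, for Cplx3. Cortical identity was visible in every library, since the lowest value over libraries was 1405 for Tbr1, a marker of cortical excitatory neurons. The dissections differed in their content of neighbouring tissue. Doc2g, a marker of olfactory bulb neurons, ranged from 98.6 to 4584 and Eomes from 0 to 1317, and 14 libraries with the highest mean of 5 olfactory bulb markers were set apart in one alternative analysis. Ttr, a choroid plexus transcript, ranged from 1.02 to 50312. HT vehicle female replicate 1 stood apart in choroid plexus genes and HT lithium female replicate 5 in mitochondrially encoded genes. Shank3 read 7456 ± 797 (SD, n = 10) in WT and 7673 ± 831 (SD, n = 8) in HT vehicle mice, 7609 ± 1592 (SD, n = 10) and 7922 ± 749.8 (SD, n = 10) under fluoxetine, and 7726 ± 642 (SD, n = 9) and 9748 ± 1046 (SD, n = 9) under lithium. The ranges of the genotypes overlapped in each treatment, and HT against WT was 0.05 ± 0.09 (SE, adjusted p = 0.915) under vehicle, 0.08 ± 0.08 (SE, adjusted p = 0.734) under fluoxetine and 0.34 ± 0.09 (SE, adjusted p = 0.214) under lithium in limma. Lithium against vehicle for Shank3 was called in HT, at 0.34 ± 0.09 (SE, adjusted p = 0.0127), and not in WT, at 0.06 ± 0.09 (SE, adjusted p = 0.751). The genotype difference of that effect was not called, at 0.29 ± 0.13 (SE, adjusted p = 0.471) in limma. The gene-level value of Shank3 was not lower in HT mice and did not serve as a check of the labels.

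The machinery was among the more abundant transcripts of the tissue, taking a median of 1.89% and at most 2.07% of the reads of a library. Levels of different genes are compared here only as normalised count (reads divided by the size factor of the library) per kilobase of the longest transcript, averaged over 56 libraries. On that scale 31 of the 34 genes lay above the median of all genes, and the members' median was 1720 against 127. The highest level was that of Slc17a7, the vesicular glutamate transporter of most cortical neurons, at 15984 per kb. It was followed by Syp, a tetraspan vesicle protein, at 14855, and by the SNAREs Vamp2 (synaptobrevin) at 14292 and Snap25 at 12509.7 per kb. Syt1, the fast calcium sensor, stood at 10219 and Rab3a, a vesicle GTPase, at 9759 per kb.

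Within most families 1 member was far below its relatives. Syn3 (synapsin III) was the lowest of all at 73.9 per kb, against 5944 for Syn1 and 4369 for Syn2, the other synapsins, which tether vesicles to each other. Cplx3 stood at 115 per kb against 7529 for Cplx1 and 5872 for Cplx2, and Slc17a6, the transporter of thalamic and other subcortical neurons, at 149. Syt2 stood at 105 per kb, Syt7 at 1923, Syt4 at 1474 and Doc2a, a soluble calcium sensor, at 597. Of the SV2 glycoproteins, Sv2b at 3539 and Sv2a at 3072 per kb exceeded Sv2c at 139. Synpr (synaptoporin, a relative of Syp) stood at 983 per kb, Stx1a (syntaxin) at 4882 and Vamp1 at 394.

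Active zone transcripts had the lowest median of any role, at 974 per kb, with none above 1443. They ran from Unc13a, the main cortical Munc13, at 1443 through Rims1 at 1389, Bsn (Bassoon) at 1134, Erc2 (a scaffold also called CAST) at 974, Rims2 at 726 and Pclo (Piccolo) at 494 to Unc13b at 159 per kb. The recycling genes Dnm1 (dynamin) at 7405, Nsf at 6308, Sh3gl2 (endophilin) at 3239 and Synj1 (synaptojanin) at 1517 per kb all lay above the active zone genes. Levels per kb depend on the choice of the longest transcript, since the counted isoforms are not named in the table.

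**Figure D1:**
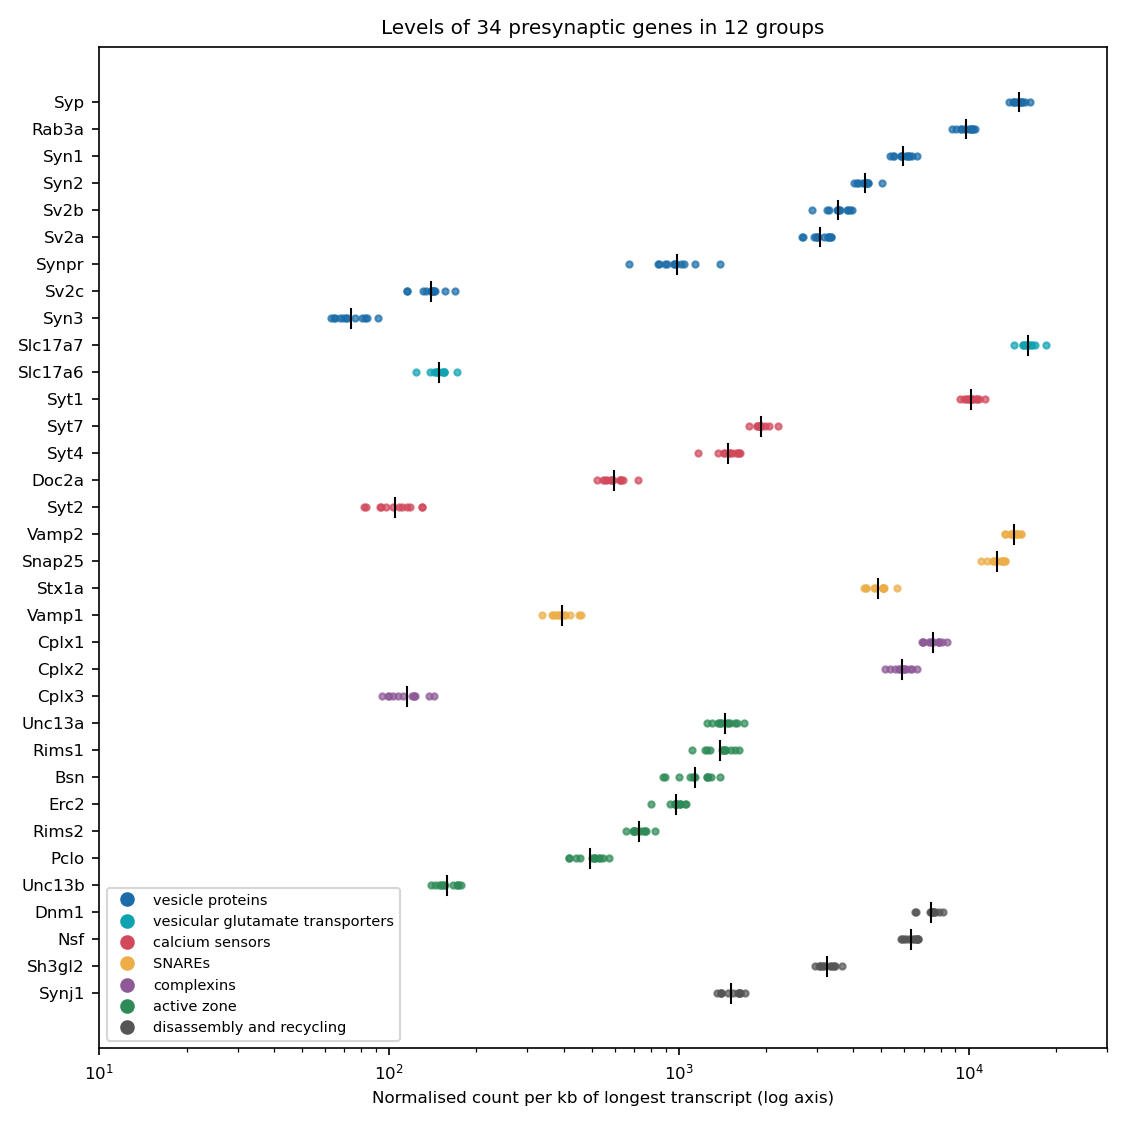
Normalised count per kb of the longest transcript (log axis) for each of the 34 genes, with 1 point for each of the 12 group means and a bar for the mean over libraries, coloured by role. The group means of a gene lie close together compared with the distance between genes: Syn3 sits near 73.9 per kb and Slc17a7 near 15984.

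Across the 12 groups the levels moved little. The ratio of the highest to the lowest group mean had a median of 1.29 and was under 1.5 for 30 of the 34 genes, the smallest being 1.14 for Vamp2. It was over 1.5 for Synpr (2.06), Syt2 (1.58), Bsn (1.57) and Cplx3 (1.51). The SD within groups on the log2 scale had a median of 0.181 for the members and 0.195 for all tested genes. Sv2a was the steadiest member, with an SD of 0.091, and Synpr the most variable, with 0.506. WT fluoxetine females held the lowest group mean of 12 members, and HT lithium males the highest group mean of 13 members. These groups also differed in tissue content. Of the 14 libraries of highest olfactory level, 3 were WT fluoxetine females and 0 were HT lithium males. Mean log2 levels of excitatory cortical markers were 10.87 in WT fluoxetine females and 11.39 in HT lithium males. The part of tissue content in the extremes was not tested.

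Lithium raised a small set of these genes in both genotypes. A call below means a Benjamini-Hochberg adjusted p under 0.05 over all tested genes in limma, and changes are differences of log2(normalised count + 1) with the sexes weighted equally. Percentages of all genes are shares called at that adjusted threshold. Counts of members at an unadjusted p under 0.05 have no matching share over all genes beside them. They are not read as particular to the members. In WT mice 6 of the 34 members were called, all higher under lithium, beside 11.7% of all genes tested. In HT mice 7 were called, 6 higher and 1 lower, beside 9.77% of all genes. Syn3, Sv2a, Bsn and Unc13b were higher in both genotypes, by 0.21 to 0.43 on the log2 scale. The medians over the 34 members, 0.01 in WT and 0.01 in HT, were near those over all genes (-0.003 and 0.002). In bulk tissue, fewer cells of a type and less RNA per cell cannot be told apart.

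Syn3 encodes synapsin III, the synapsin best known from developing neurons, and lies at chr10:86055125-86498896 on the minus strand (GRCm38, GENCODE). Its normalised counts were 279.8, 303, 286, 357 and 331 in WT vehicle females and 347, 330.1, 352, 298 and 325 in WT vehicle males. Under lithium they were 418, 420.1, 323 and 438 in WT females and 501, 483, 395, 449.5 and 351 in WT males. The lithium libraries were the higher ones, with 2 of 9 of them (1 female, 1 male) inside the vehicle range. The difference was 0.37 ± 0.07 (SE, adjusted p = 0.00056), or 29.5%. In HT mice the counts were 257, 319.7, 292, 349 and 289.6 in vehicle females and 274, 333 and 319 in vehicle males, and 414, 394, 446, 378 and 344 in lithium females and 384, 381, 390.1 and 386 in lithium males. Only the lowest lithium female fell inside the HT vehicle range. The HT difference was 0.36 ± 0.08 (SE, adjusted p = 0.00245), and the adjusted p of Syn3 stayed under 0.05 in each of the 29 WT and 27 HT alternatives, at 1.62e-04 to 0.0202 in WT and 0.00146 to 0.0263 in HT.

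Sv2a encodes the vesicle glycoprotein that binds the antiepileptic drug levetiracetam, and lies at chr3:96181151-96195521 on the plus strand. WT vehicle females had normalised counts of 11336, 12062, 11309, 10824 and 12765, and WT vehicle males 13035, 12787, 13119, 11922 and 12419. WT lithium females had 15021, 15058, 13042 and 14998, and WT lithium males 14404, 14835, 13360, 15129.7 and 14566. Of the 9 lithium libraries, 8 lay above the highest vehicle value. The WT difference was 0.25 ± 0.04 (SE, adjusted p = 9.57e-05), or 19.3%. HT vehicle females had 11216, 11706, 10105, 11851 and 12936, HT vehicle males 13241, 13076 and 12630.3, HT lithium females 15004, 12628, 13769, 15092 and 14236 and HT lithium males 13839, 15080.4, 14454 and 13804. In HT mice, too, only 1 lithium library, a female, lay inside the vehicle range. The HT difference was 0.22 ± 0.05 (SE, adjusted p = 0.00233).

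Bsn encodes Bassoon, a giant scaffold of the active zone, and lies at chr9:108096022-108190384 on the minus strand. Its normalised counts were 14127, 12745, 14867, 14285 and 14264 in WT vehicle females and 15778, 17832, 17434, 14347 and 14631 in WT vehicle males. They were 17032, 23345, 18665 and 23077 in WT lithium females and 20021, 19128, 19096, 20473 and 21445 in WT lithium males. Vehicle males and females overlapped, and 1 lithium female lay within the vehicle range. The WT difference was 0.43 ± 0.09 (SE, adjusted p = 0.00112), or 34.9%. In HT mice the counts were 10838, 16222, 12954, 15423 and 15757 in vehicle females, 16197, 19902 and 17501 in vehicle males, 22742, 18406, 19684, 17081 and 21984 in lithium females and 20695, 24178, 22294 and 21126 in lithium males. All 4 lithium males exceeded the 3 vehicle males, and all 5 lithium females exceeded the 5 vehicle females. With the sexes joined, the lithium females at 17081, 18406 and 19684 lay inside the vehicle range, which reached 19902. The HT difference was 0.40 ± 0.10 (SE, adjusted p = 0.00576).

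Unc13b, which encodes a second Munc13 priming factor at chr4:43058953-43264871 on the plus strand, was called with smaller changes. Its counts were 2049, 1937, 2196, 2011 and 2079 in WT vehicle females, 2106, 2382, 2310.1, 2256 and 2183 in WT vehicle males, 1995, 2546, 2494 and 2795 in WT lithium females and 2541, 2219.7, 2392, 2864 and 2679.9 in WT lithium males. The ranges overlapped in both sexes. In HT mice they were 1646, 2469.7, 2322, 2255 and 2232 in vehicle females, 2059.6, 2413 and 2222 in vehicle males, 2495, 2743, 2537, 2233 and 2748 in lithium females and 2752, 2712, 2485 and 2479.9 in lithium males. Here the males did not overlap and the females did. The differences were 0.21 ± 0.06 (SE, adjusted p = 0.0253) in WT and 0.23 ± 0.07 (SE, adjusted p = 0.0263) in HT.

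**Figure D2:**
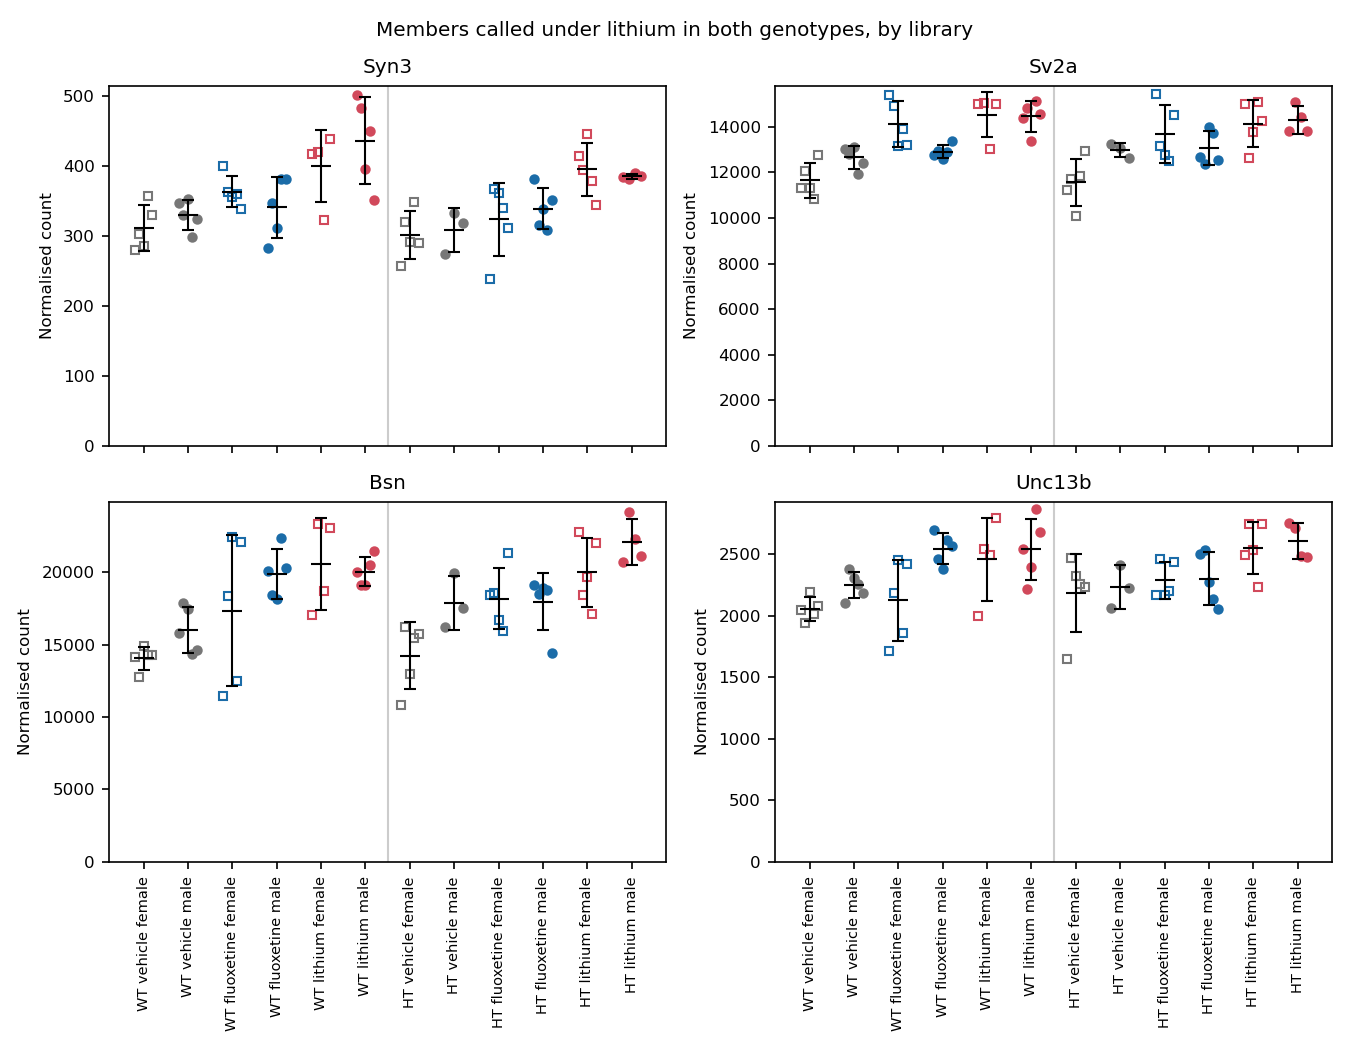
Normalised counts of Syn3, Sv2a, Bsn and Unc13b by library in the 12 groups (open squares females, filled circles males, grey vehicle, blue fluoxetine, red lithium), with the mean and SD of each group in black. The lithium groups stand highest in each genotype for Syn3, where WT lithium males reach 501; the fluoxetine groups of Bsn lie between vehicle and lithium or spread widely, as in WT fluoxetine females (11431 to 22396).

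Other members were called in 1 genotype only. In WT mice Synj1, a phosphoinositide phosphatase of vesicle uncoating, ran from 8832 to 11378 with a median of 9796 (n = 10) under vehicle and from 9757 to 13037 with a median of 11414 (n = 9) under lithium, a rise of 0.20 ± 0.06 (SE, adjusted p = 0.0273). Pclo ran from 7711 to 10599 with a median of 8596 (n = 10) and from 9146 to 12212 with a median of 10311 (n = 9), a rise of 0.26 ± 0.08 (SE, adjusted p = 0.0336). Both pairs of ranges overlapped. In HT mice Synj1 differed by 0.0064 ± 0.07 (SE, adjusted p = 0.972) and Pclo by 0.20 ± 0.09 (SE, adjusted p = 0.17).

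In HT mice Unc13a ran from 10487 to 15042 with a median of 14098 (n = 8) under vehicle and from 14026 to 17941 with a median of 16869 (n = 9) under lithium, a rise of 0.28 ± 0.08 (SE, adjusted p = 0.0138). Cplx1, which clamps and promotes SNARE-driven fusion, ran from 13180.4 to 16299 with a median of 15792 (n = 8) and from 14924 to 19286 with a median of 18052 (n = 9), a rise of 0.16 ± 0.05 (SE, adjusted p = 0.0446). Rims2, a scaffold that links vesicles to calcium channels, was the 1 member that fell: it ran from 3244 to 4122 with a median of 3876 (n = 8) under vehicle and from 2828 to 3791 with a median of 3424 (n = 9) under lithium, a change of -0.19 ± 0.06 (SE, adjusted p = 0.0319). The ranges overlapped for all 3 genes. Without the 2 libraries that stood apart (HT vehicle female replicate 1 and HT lithium female replicate 5), Unc13a was at 0.23 ± 0.08 (SE, adjusted p = 0.0563), Cplx1 at 0.15 ± 0.06 (SE, adjusted p = 0.0788) and Unc13b at 0.17 ± 0.07 (SE, adjusted p = 0.11). With only the HT vehicle and HT lithium groups in the fit, the adjusted p was 0.128 for Cplx1, 0.0714 for Rims2 and 0.0583 for Unc13b. The WT values were 0.16 ± 0.07 (SE, adjusted p = 0.145) for Unc13a, 0.12 ± 0.05 (SE, adjusted p = 0.112) for Cplx1 and -0.08 ± 0.06 (SE, adjusted p = 0.43) for Rims2.

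The WT and HT lithium comparisons share no mice. The 4 members called in both made up 66.7% of the 6 called in WT and 57.1% of the 7 called in HT, and 24 of the 34 members (70.6%) had the same sign in both. Over all genes, those called in both made up 32.7% of the calls in WT and 39.1% of those in HT, and 66.8% of all tested genes had the same sign. None of these shares was tested against another. The genotype difference itself (HT effect minus WT effect) was also tested, and this called 0 of 34 members in limma, beside 0.0166% of all genes, with 1 member at an unadjusted p under 0.05 and 0 called by edgeR. That member was Synj1, at -0.19 ± 0.09 (SE, adjusted p = 0.50). Without the 14 libraries of highest olfactory level the genotype difference called 0 members and 929 genes in all, against 3 genes in the main fit.

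By role, the active zone gave 3 of 7 genes higher in WT and 3 higher and 1 lower in HT, beside 11.7% and 9.77% of all genes. None of these active zone genes stayed called once length and GC trends were removed, as described below. No role was tested as a set. The vesicle proteins gave 2 of 9 higher in each genotype (Syn3 and Sv2a). None of the 4 SNAREs, 5 calcium sensors or 2 glutamate transporters was called in either genotype by limma or edgeR, with Vamp2 in WT and Vamp1 in HT at an unadjusted p under 0.05. Among these, the values of Syt2, the sensor of fast-spiking inhibitory terminals, were 0.32 ± 0.18 (SE, adjusted p = 0.267) in WT and 0.37 ± 0.20 (SE, adjusted p = 0.248) in HT. Rims1 stood at -0.30 ± 0.12 (SE, adjusted p = 0.102) in WT and Vamp1 at -0.26 ± 0.12 (SE, adjusted p = 0.174) in HT. Of the abundant core genes, Slc17a7 (0.0003), Syp (-0.04), Snap25 (-0.02) and Syt1 (-0.01) lay close to 0 in WT on the log2 scale. In HT these genes were at 0.04, 0.07, -0.10 and -0.12. Vamp2 and Rab3a, also abundant, had lower mean counts in lithium than in vehicle mice, and neither was called. In WT the mean of Vamp2 went from 32234 to 29915 and that of Rab3a from 15364 to 14500. In HT the mean of Vamp2 went from 31938 to 30755 and that of Rab3a from 15580 to 14663. The other synapsins, Syn1 (-0.03 in WT, 0.11 in HT) and Syn2 (0.09 and 0.10), were not called.

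A further list of 70 genes of release and the vesicle cycle gave 9 calls in each genotype, 7 higher and 2 lower in WT and 4 higher and 5 lower in HT. That is 12.9% of the list in each, near the 11.7% and 9.77% of all genes. Sh3gl3, an endophilin, fell by 0.27 ± 0.06 in WT and by 0.28 ± 0.06 in HT (log2, SE; adjusted p = 0.0015 and 0.00233). Itsn1, an endocytic scaffold, rose by 0.16 ± 0.04 (SE, adjusted p = 0.00485) in WT and 0.16 ± 0.04 (SE, adjusted p = 0.0116) in HT. Rims4 rose by 0.18 ± 0.06 (SE, adjusted p = 0.035) in WT and 0.27 ± 0.06 (SE, adjusted p = 0.00449) in HT, and Snapin, which binds SNAP-25, changed by -0.18 ± 0.06 (SE, adjusted p = 0.0333) and -0.24 ± 0.06 (SE, adjusted p = 0.00891). Stxbp5l, encoding a tomosyn that binds syntaxin, rose in WT by 0.41 ± 0.10 (SE, adjusted p = 0.00513). Of the 3 SNAP adaptors of NSF, Napb at -0.22 ± 0.06 (SE, adjusted p = 0.0175) and Napg at -0.20 ± 0.06 (SE, adjusted p = 0.0358) fell in HT mice, and Napa was not called, at -0.05 ± 0.07 (SE, adjusted p = 0.739). In WT none was called, with Napb at -0.05 ± 0.06 (SE, adjusted p = 0.649), Napg at -0.16 ± 0.06 (SE, adjusted p = 0.0692) and Napa at -0.06 ± 0.07 (SE, adjusted p = 0.642). The genotype difference was not called for Napb (adjusted p = 0.53) or Napg (adjusted p = 0.94) in limma.

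The members that rose tended to have long transcripts. The 6 higher in WT had a median length of 10922 bases (4334 to 20084) and the 6 higher in HT 7515 (2189 to 15938), against 4690 over all members and 3162 over all genes. The dependence of library values on length and GC content was measured in each library. The mean slope of the log2 value per doubling of length, in females and males, was -0.03 and -0.02 in WT vehicle, 0.03 and 0.01 in WT lithium, -0.05 and 0.0094 in HT vehicle and 0.02 and -0.0059 in HT lithium mice. It was higher under lithium in both WT sexes and in HT females, and lower in HT males. The mean slope per 10 points of GC content, in the same order of sexes, was -0.07 and 0.06 in WT vehicle, -0.0023 and -0.01 in WT lithium, -0.06 and -0.07 in HT vehicle and 0.06 and 0.06 in HT lithium mice. It was higher under lithium in both HT sexes and in WT females, and lower in WT males. With both trends removed within each library, 2 members stayed called in WT, beside 8.39% of all genes, and 1 in HT, beside 2.32%. Syn3 was at 0.35 ± 0.08 (SE, adjusted p = 0.0025) in WT and 0.39 ± 0.08 (SE, adjusted p = 0.00676) in HT. Sv2a was at 0.20 ± 0.04 (SE, adjusted p = 0.000937) in WT and 0.13 ± 0.04 (SE, adjusted p = 0.10) in HT.

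Bsn lost its calls under that correction, at 0.26 ± 0.09 (SE, adjusted p = 0.0696) in WT and 0.14 ± 0.10 (SE, adjusted p = 0.516) in HT. So did Unc13b, at 0.06 ± 0.08 (SE, adjusted p = 0.707) and 0.17 ± 0.08 (SE, adjusted p = 0.307), Pclo in WT at 0.07 ± 0.09 (SE, adjusted p = 0.74), Synj1 in WT at 0.13 ± 0.07 (SE, adjusted p = 0.244) and Unc13a in HT at 0.12 ± 0.08 (SE, adjusted p = 0.502). In HT mice Cplx1 was at 0.10 ± 0.05 (SE, adjusted p = 0.299) and Rims2 at -0.21 ± 0.07 (SE, adjusted p = 0.076). Whether the length and GC trends of a library are technical was not tested. Among cell type markers, 7 of 8 myelin genes in WT and 8 of 8 in HT had log2 values below 0 under lithium (medians -0.22 and -0.38), as had 5 of 5 olfactory bulb genes (medians -0.18 and -0.40), and their part in the lithium results was not tested. Exons of Syn3, Unc13a, Pclo and Synj1 overlap a gene on the opposite strand (Timp3 for Syn3, Colgalt1 for Unc13a), and those of Bsn an annotated miRNA on its own strand. The sources used here do not give whether the counting used strand.

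**Figure D3:**
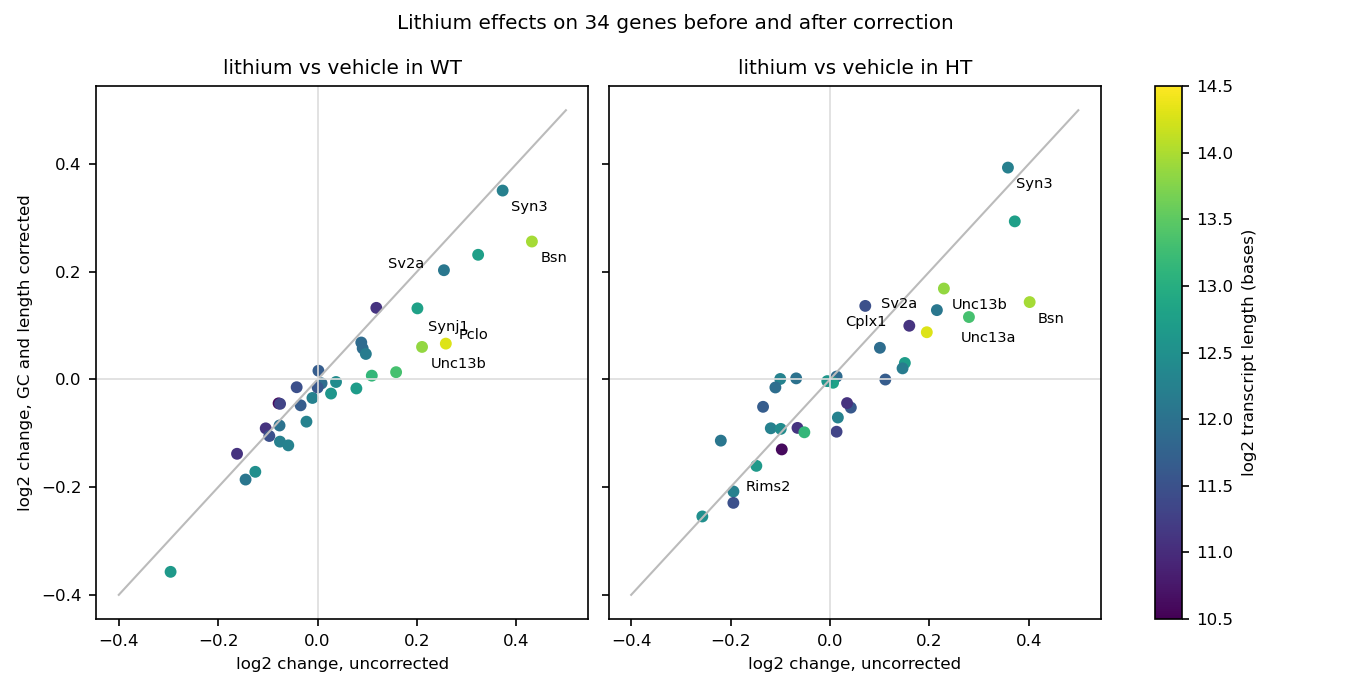
The log2 change under lithium of each of the 34 genes in WT (left) and HT (right), without correction (x axis) and after removal of GC and length trends within each library (y axis), coloured by transcript length, with the called genes named. Long genes such as Bsn and Pclo fall below the grey line of equality, while Syn3 stays near it in both genotypes (0.35 in WT and 0.39 in HT after correction).

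Promoter windows of the members called in both genotypes are printed because these genes moved together under lithium. RefSeq windows (GRCm38.p6) of 250 bases before to 50 bases after a start were held for 27 of the 34 members, and for 3 of these 4 genes (all but Syn3). Capitals mark the GC box GGGCGG on either strand, a binding motif of Sp-family factors. Bsn is at chr9:108190334-108190633 on the minus strand, Sv2a at chr3:96180977-96181276 and Unc13b at chr4:43058703-43059002 on the plus strand.
Bsn: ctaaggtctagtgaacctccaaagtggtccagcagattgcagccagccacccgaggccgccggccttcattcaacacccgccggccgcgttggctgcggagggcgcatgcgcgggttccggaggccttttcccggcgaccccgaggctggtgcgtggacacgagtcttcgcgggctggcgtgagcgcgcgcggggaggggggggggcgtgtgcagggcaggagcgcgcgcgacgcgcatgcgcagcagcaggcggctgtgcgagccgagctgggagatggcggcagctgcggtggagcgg
Sv2a: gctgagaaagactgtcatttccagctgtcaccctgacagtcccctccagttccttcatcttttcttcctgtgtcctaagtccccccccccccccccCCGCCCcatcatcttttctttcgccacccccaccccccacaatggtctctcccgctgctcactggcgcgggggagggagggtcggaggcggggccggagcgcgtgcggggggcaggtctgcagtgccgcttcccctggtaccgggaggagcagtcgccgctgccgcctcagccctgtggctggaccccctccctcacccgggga
Unc13b: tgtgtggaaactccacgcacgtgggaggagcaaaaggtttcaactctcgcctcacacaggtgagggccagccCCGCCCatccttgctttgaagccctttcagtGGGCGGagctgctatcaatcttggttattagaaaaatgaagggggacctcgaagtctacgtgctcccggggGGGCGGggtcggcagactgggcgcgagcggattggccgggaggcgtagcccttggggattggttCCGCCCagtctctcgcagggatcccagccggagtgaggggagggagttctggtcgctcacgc
All 3 windows were rich in G and C, at 72.3% in Bsn, 68% in Sv2a and 62% in Unc13b. The window of Bsn held no GC box, that of Sv2a 1 and that of Unc13b 4. None of the 3 held the cAMP response element TGACGTCA, its half-site TGACG or the REST half-site TCAGCACC on either strand; TGACG is contained in TGACGTCA. A GC box was present in 62.2% of the 37 windows of members and in 35.7% of 32851 windows of all genes. The half-site TGACG was present in 24.3% and 20.8%, TGACGTCA in 5.41% and 1.79%, and TCAGCACC in 5.41% and 1.65%. The windows were not matched for GC content, some genes had more than 1, and none of these shares was tested.

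Under fluoxetine, 1 member was called in WT mice and none in HT mice. In WT, 1 of 34 was called in limma, beside 5.18% of all genes, and edgeR called 2. The member called by limma was Sv2a, whose counts were 15386, 14935, 13152, 13908 and 13193 in WT fluoxetine females and 12770, 12940.5, 12576, 12879 and 13380.1 in WT fluoxetine males. All 5 treated females lay above the 5 vehicle females given above, whereas the males overlapped. The difference was 0.15 ± 0.04 (SE, adjusted p = 0.0287), or 11.1%. With only the WT vehicle and WT fluoxetine groups in the fit, the adjusted p was 0.0601, with the GC and length correction 0.119.

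Bsn, at 0.28 ± 0.09 (SE, adjusted p = 0.0517), and Unc13a, at 0.16 ± 0.07 (SE, adjusted p = 0.174), came next in WT mice and were not called by limma; edgeR called Bsn (0.30, adjusted p = 0.0307). The counts of Bsn in WT fluoxetine females fell into low and high libraries (11431, 18334, 22396, 12460 and 22084), while the males had 20077, 18407, 18111, 22365 and 20309. In HT mice no member was called by limma or edgeR, beside 0.0% of all genes, and 2 had an unadjusted p under 0.05. These were Sv2a at 0.13 ± 0.05 (SE, adjusted p = 0.475) and Rims2 at -0.13 ± 0.06 (SE, adjusted p = 0.64). The genotype difference of the fluoxetine effect gave 0 calls among the members by either tool (0 at an unadjusted p under 0.05) and 0.0% over all genes. Of the 70 further genes, 3 (4.29%) were called in WT: Sh3gl3 fell by 0.33, Syt12 rose by 0.33 and Itsn1 rose by 0.13 on the log2 scale. All 8 myelin genes were below 0 in the same comparison (median -0.66) and 5 of them were called, and their part in the member values was not tested.

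The 2 drugs share their vehicle mice, so their own values are set side by side. For Sv2a the log2 change was 0.25 under lithium and 0.15 under fluoxetine in WT, and 0.22 and 0.13 in HT. For Syn3 it was 0.37 and 0.13 in WT, and 0.36 and 0.11 in HT. For Bsn it was 0.43 and 0.28 in WT, and 0.40 and 0.18 in HT. Tested directly in limma, lithium against fluoxetine gave 0 called members in WT, beside 0.233% of all genes called, and 0 in HT, beside 0.555%. With edgeR none was called. At an unadjusted p under 0.05 there were 4 members in WT and 7 in HT, with no share over all genes at that threshold given. Syn3 had the smallest p in WT, at 0.24 ± 0.07 (SE, adjusted p = 0.166), and in HT it was at 0.24 ± 0.07 (SE, adjusted p = 0.0995). Cplx1 was at 0.14 ± 0.05 (SE, adjusted p = 0.234) in WT and 0.16 ± 0.05 (SE, adjusted p = 0.0972) in HT.

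**Figure D4:**
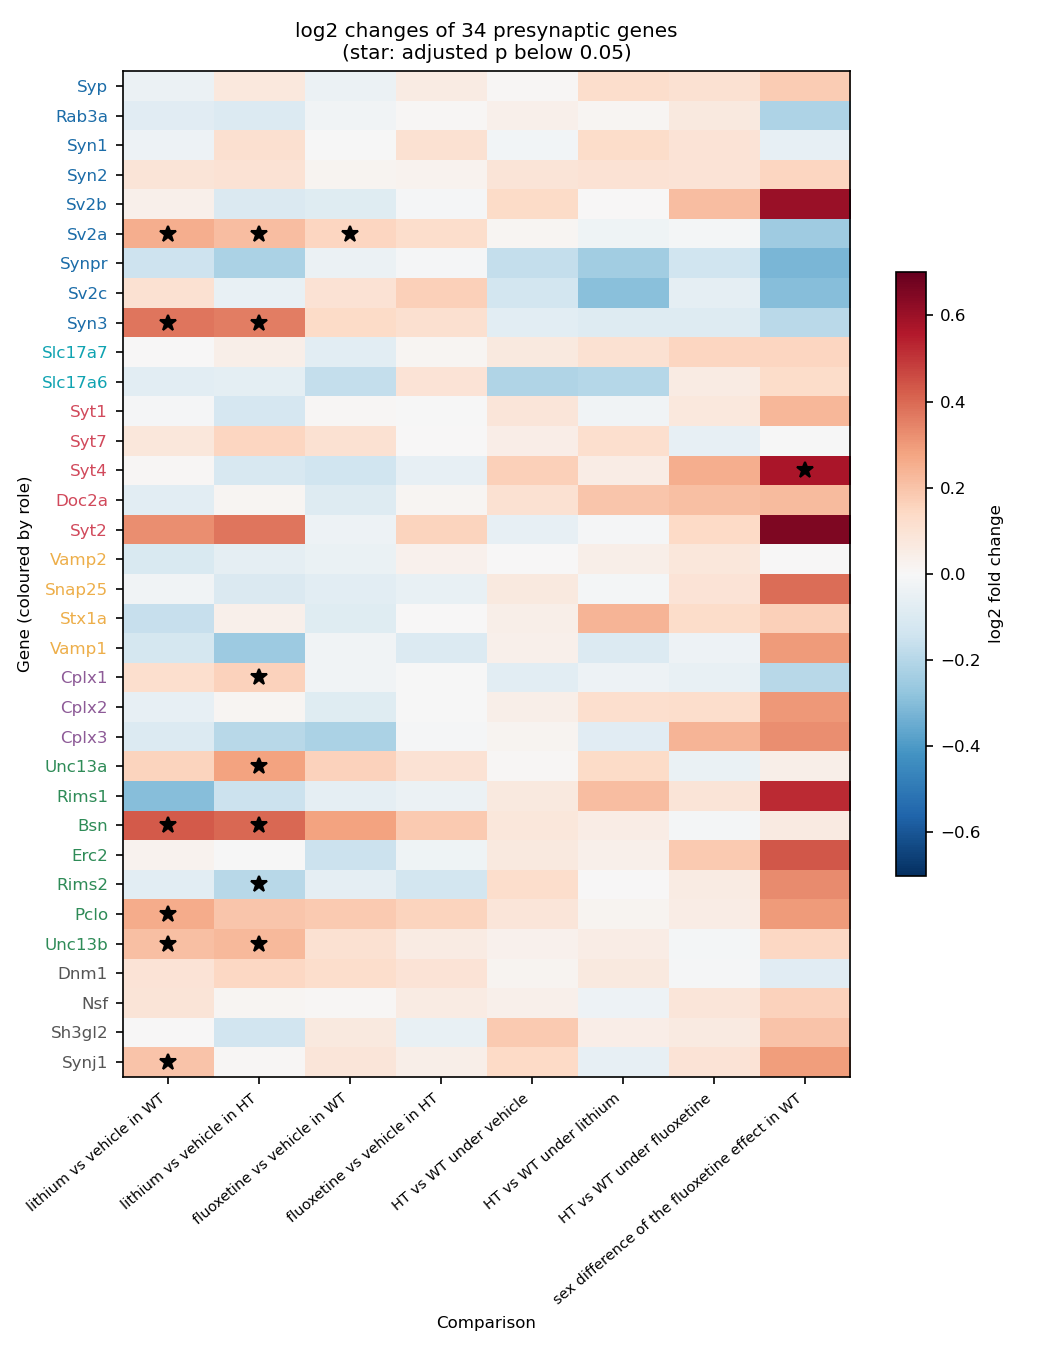
Heat map of the log2 change of each of the 34 genes (rows, coloured by role) in 8 comparisons (columns), red for higher and blue for lower in the first-named group (males minus females for the sex difference), with a star where the adjusted p is below 0.05. Stars fall in the lithium columns (6 in WT, 7 in HT), on Sv2a under fluoxetine in WT, and on Syt4 for the sex difference of the fluoxetine effect in WT.

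The Shank3 allele was not accompanied by a called change of any member. HT and WT mice were compared within each treatment by limma, with 0 of 34 members called and 0.0% of all genes under vehicle, 0.0% under lithium and 0.0% under fluoxetine. Unadjusted p-values under 0.05 were found for 3, 2 and 3 members, and edgeR called 0 in each. The counts over all genes depended on the setting. Without the 14 libraries of highest olfactory level 831 genes were called under lithium. With the olfactory level as a covariate 104 were called under fluoxetine. The member count was 0 in both of these fits. Under vehicle the smallest p-values belonged to Sh3gl2 at 0.18 ± 0.08 (SE, adjusted p = 0.781), Synj1 at 0.14 ± 0.07 (SE, adjusted p = 0.781) and Rims2 at 0.12 ± 0.06 (SE, adjusted p = 0.781). Of the 34 members, 27 had values above 0 under vehicle, with a median of 0.04 on the log2 scale against -0.001 over all genes. Under lithium the leading values were 0.12 ± 0.06 (SE, adjusted p = 0.496) for Syt7, 0.24 ± 0.12 (SE, adjusted p = 0.497) for Stx1a and -0.29 ± 0.15 (SE, adjusted p = 0.522) for Sv2c. Under fluoxetine they were 0.25 ± 0.09 (SE, adjusted p = 0.317) for Syt4, 0.19 ± 0.07 (SE, adjusted p = 0.369) for Erc2 and 0.21 ± 0.10 (SE, adjusted p = 0.412) for Doc2a. Syt4 was called under fluoxetine only when WT fluoxetine female replicate 5 was left out (0.32, adjusted p = 0.0497). Over the alternatives the lowest values were 0.09 for Syt4, 0.02 for Erc2 and 0.01 for Doc2a. Single left-out libraries aside, the adjusted p of each was highest without the 14 libraries of highest olfactory level. Those libraries held 3 WT and 0 HT fluoxetine females, and 1 fluoxetine male of each genotype. Their part in these values was not tested.

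Males were compared with females over the 6 combinations of genotype and treatment. In limma 0 of 34 members were called, beside 0.283% of all genes, with 5 at an unadjusted p under 0.05 and 0 called by edgeR. Values were above 0 (higher in males) for 29 of 34 members, with a median of 0.07 against 0.001 over all genes. Pclo was at 0.14 ± 0.05 (SE, adjusted p = 0.218), Synj1 at 0.10 ± 0.04 (SE, adjusted p = 0.237) and Bsn at 0.15 ± 0.05 (SE, adjusted p = 0.239). Over the alternatives their lowest values were 0.04, 0.04 and 0.03. Single left-out libraries aside, the adjusted p of each was highest without the 14 libraries of highest olfactory level. The part of olfactory content in the sex values was not tested. A sex difference of the lithium effect was called for no member by limma or edgeR (0 at an unadjusted p under 0.05 in WT and in HT), beside 0.0% of all genes in WT and 0.172% in HT. The sex difference of the genotype effect under vehicle gave 0 calls by either tool beside 0.0%, with 1 member, Synj1 at 0.29 ± 0.13 (SE, adjusted p = 0.529), at an unadjusted p under 0.05.

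A sex difference was called for the fluoxetine effect in WT. In limma 1 of 34 members was called, beside 7.74% of all genes, with 8 at an unadjusted p under 0.05 and 0 called by edgeR. Syt4, a synaptotagmin of dense-core and other vesicles, had counts of 6041, 5373, 6695, 5787 and 5831 in vehicle females and 3764, 3941, 5008, 3583 and 6299 in fluoxetine females. In males they were 4526, 6860, 5376, 4218 and 5505 under vehicle and 7088, 5469, 5539.7, 5176 and 5767 under fluoxetine. Of the 5 treated females 4 lay under the lowest vehicle female, while the males overlapped. The effect in males minus that in females was 0.57 ± 0.17 (SE, adjusted p = 0.0363). The next values were 0.33 ± 0.11 (SE, adjusted p = 0.0522) for Rims2, 0.43 ± 0.15 (SE, adjusted p = 0.0606) for Erc2 and -0.25 ± 0.09 (SE, adjusted p = 0.0652) for Sv2a. Sv2b was at 0.60 ± 0.22 (SE, adjusted p = 0.0779). In HT mice 0 members were called by either tool, beside 0.0277%, 3 had an unadjusted p under 0.05, and 2 of 34 values were above 0 (median -0.17 against -0.002 over all genes). The HT value of Syt4 was -0.14 ± 0.19 (SE, adjusted p = 0.948).

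Other markers moved with this sex difference. Excitatory cortical markers averaged 10.87 on the log2 scale in WT fluoxetine females and 11.07 to 11.39 in the other groups. For the sex difference of the fluoxetine effect in WT, 5 of 5 olfactory bulb genes were below 0, with a median of -1.49, and 7 of 8 excitatory cortical genes were above 0, with a median of 0.52. All 13 mitochondrially encoded genes were above 0, with a median of 0.36. Of the 5 WT fluoxetine females, 3 were among the 14 libraries of highest olfactory level. The part of these markers in the result was not tested. Without those 14 libraries Syt4 was at 0.22 ± 0.16 (SE, adjusted p = 0.597), and with the GC and length correction at 0.36 ± 0.19 (SE, adjusted p = 0.339). In the list of 70 further genes 6 (8.57%) were called, with Rab27b at 0.79 ± 0.19 (SE, adjusted p = 0.0108), Napb at 0.41 ± 0.11 (SE, adjusted p = 0.0185) and Slc32a1, the vesicular GABA transporter, at -0.79 ± 0.24 (SE, adjusted p = 0.0319).

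Several members differed between libraries of high and low olfactory bulb level when all 56 libraries were pooled. The 14 libraries of highest level came from 9 of the 12 groups, with none from HT fluoxetine females, HT lithium males or HT vehicle males, so the pooled ranges mix this level with the groups. Synpr had normalised counts of 4639 to 10276 (median 5840.3) in the 14 libraries of highest olfactory level and 2143 to 5084 (median 3357) in the other 42. Slc17a7 was the reverse, with 28646 to 46165 (median 41913) and 44377 to 61297 (median 53345). Both pairs of ranges overlapped only at their edges. Sv2b had 8907 to 18453 in the 14 libraries and 15587 to 23737 in the others, Stx1a 6090 to 9772 and 8095 to 14220.3, and Syt4 3583 to 6104 and 4218 to 7322. The medians of Slc17a6 were 716 and 560.2, and those of Sv2c 1604 and 1164, so these genes were higher where the olfactory markers were. Sv2a, with medians of 13839 and 13098, and Syn3, with 370.3 and 342, varied less with them. These ranges are descriptive and were not tested.

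The fluoxetine result in WT depended on how these libraries were handled. With the olfactory level as a covariate 9 members were called, Sv2a and Bsn higher and 7 lower, beside 16.7% of all genes. Lithium in WT also gave 9 in that fit, beside 18.2%. Among the lower ones were Sv2b at -0.19 ± 0.06 (SE, adjusted p = 0.0256), Slc17a7 at -0.16 ± 0.05 (SE, adjusted p = 0.0386) and Erc2 at -0.21 ± 0.05 (SE, adjusted p = 0.00173). Without the 14 libraries of highest olfactory level 10 were called, 9 higher and 1 lower, beside 9.73% of all genes, and lithium in WT gave 9, beside 13.8%. The 10 included Bsn at 0.48 ± 0.07 (SE, adjusted p = 2.8e-05), Pclo at 0.35 ± 0.07 (SE, adjusted p = 0.000755) and Unc13a at 0.30 ± 0.05 (SE, adjusted p = 0.000705), and Synpr was lower at -0.44 ± 0.12 (SE, adjusted p = 0.0209). Sv2b changed direction between these settings, standing at 0.19 ± 0.06 (SE, adjusted p = 0.039) without the 14 libraries. Sv2a was then at 0.12 ± 0.05 (SE, adjusted p = 0.149). The lithium calls of Syn3, Sv2a, Bsn and Unc13b held in both settings in each genotype.

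**Figure D5:**
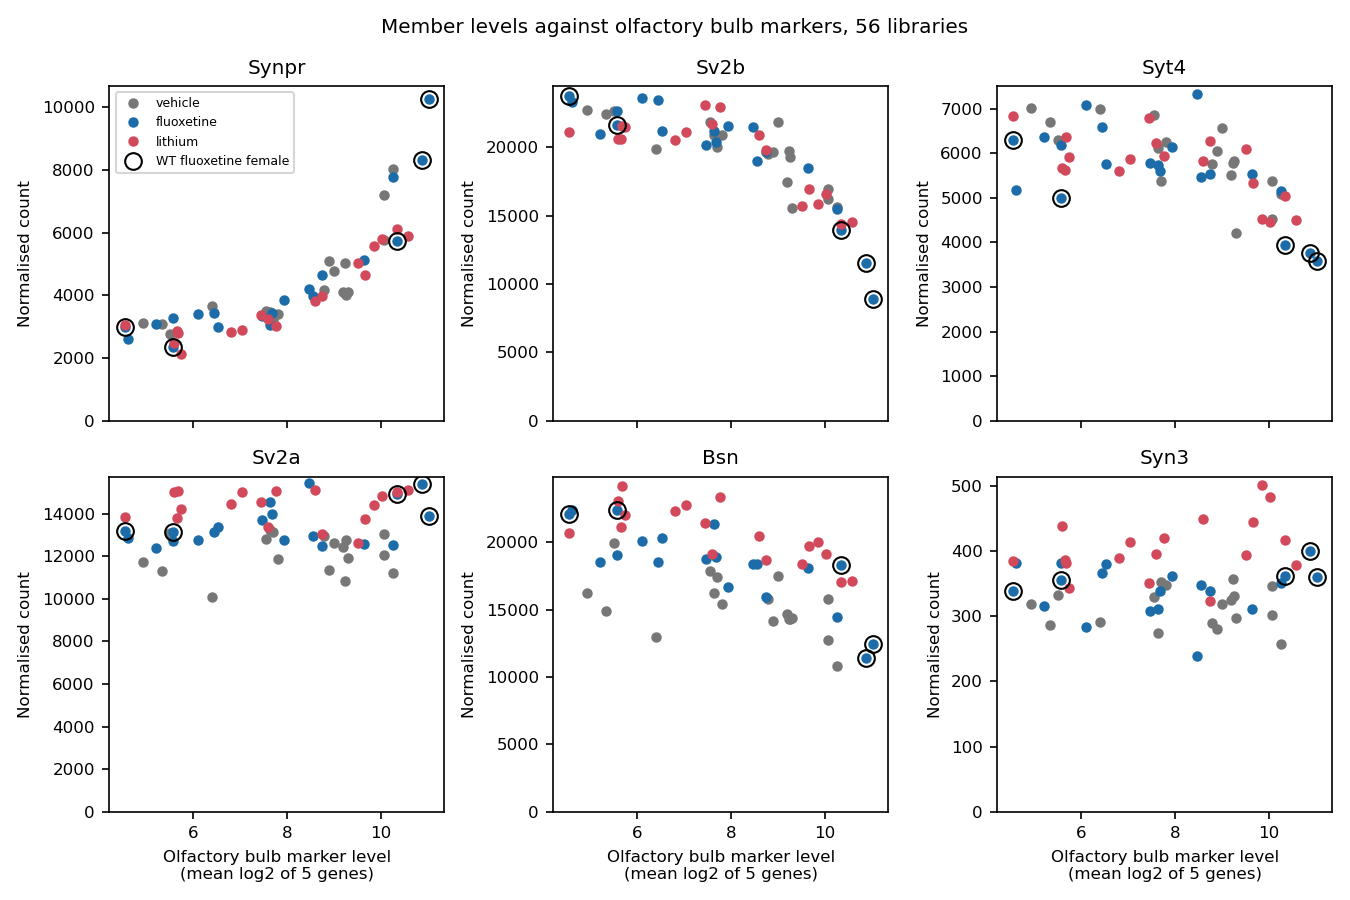
Normalised counts of 6 members in 56 libraries against the mean log2 level of 5 olfactory bulb markers, coloured by treatment, with WT fluoxetine females circled. Synpr climbs and Sv2b and Syt4 fall along the axis over the pooled libraries; 3 of the 5 WT fluoxetine females lie at its far right, where Synpr reaches 10276, while Sv2a and Syn3 show the lithium libraries above the vehicle ones over most of the range.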

How the data were processed

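Poly(A) RNA was sequenced from TruSeq stranded libraries, per the labels' protocols. The deposited values are gene counts that the authors divided by a size factor per library, a signal in which whole reads could be recovered (100% of values whole within 1e-06). Salmon 0.11.2, R 3.6.0, DESeq2 1.19.11 and GRCm38 are named, per the submitters' processing notes, without roles. Of 59 columns, 3 matched no sample and were not used, and 1 of 57 labelled samples, WT lithium female replicate 5, could not be matched to a column and so was left out. No pair of libraries within a group agreed within sampling noise (105 pairs, lowest chi-square per degree of freedom 4.94).

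Values were tested as log2(value + 1), which understates changes of low genes, for 18026 genes with at least 10 in at least 3 libraries. limma-trend (limma 3.58.1 in R 4.3.3) was fitted once to the 12 groups, leaving 44 residual degrees of freedom, with 17 two-sided contrasts and Benjamini-Hochberg adjustment over all genes of each contrast. The script was tested on simulated data. edgeR 4.0.16 (quasi-likelihood) on recovered reads, a pseudocount of 5, no low-value filter, TMM factors, only the compared groups, a replicate block, GC and length splines with 4 degrees of freedom, an olfactory covariate, and leaving out libraries were alternatives. Lengths and GC came from the longest GENCODE transcript. All 34 members are named. Full statistics go to called members, up to 10 by p, or else to up to 3 with the smallest p. The members and lists were chosen with earlier results of these data known.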

Additional observations from a re-analysis of the deposited data

Results flagged for a closer look

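Single libraries stood apart from the rest of their group for 8 of the 176 combinations of member and group looked at (16 members), by the gap to the nearest library relative to the range of the group. Chance alone marks about 1 in 20 such groups. Synpr stood at 7775 in HT fluoxetine male replicate 5, where the other 4 libraries ran from 3103 to 3446, and at 8046 in HT vehicle female replicate 1, where the others ran from 3107 to 4174. In the same HT fluoxetine male, Slc17a6 stood at 875 (others 512 to 584) and Bsn at 14447 (others 18508 to 19080). In the same HT vehicle female, Unc13b stood at 1646 (others 2232 to 2470). Both of these libraries were among the 14 of highest olfactory level, and the HT vehicle female also stood apart in choroid plexus genes. The part of this in the member values was not tested. Syt2 stood at 995 in WT lithium male replicate 5 (others 672 to 745) and Cplx3 at 616 in HT fluoxetine male replicate 3 (others 259 to 316). Sv2a stood at 13042.5 in WT lithium female replicate 3, under the other 3 libraries (14998 to 15058).

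Syt4 differed between the sexes in its response to fluoxetine in WT mice, by 0.57 on the log2 scale (males minus females, adjusted p = 0.0363, limma). Over its alternatives the value ran from 0.22 to 0.70 and the adjusted p from 0.00416 to 0.597.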

How the results depend on the processing

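Of 169 counts of called members recomputed under other settings, single left-out libraries aside, 147 stayed within 1.5 times of their reported value and 22 did not. With the GC and length correction the calls under lithium fell to 2 in WT and 1 in HT, and under fluoxetine in WT and for its sex difference to 0 each. Over all genes the calls of these comparisons went from 2109, 1761, 933 and 1395 to 1512, 418, 473 and 1. With only the compared groups the member calls were 4 under lithium in HT, 0 under fluoxetine in WT and 0 for its sex difference, beside 1339, 427 and 410 over all genes. Without the 2 libraries apart in choroid plexus or mitochondrial genes they were 4 for lithium in HT, 2 for fluoxetine in WT and 3 for its sex difference. The counts over all genes were then 1388, 1170 and 1784. Without the 14 libraries of highest olfactory level the member calls were 12 for lithium in HT, 10 for fluoxetine in WT, 0 for its sex difference, and 1 in WT and 4 in HT for lithium against fluoxetine. Calls over all genes also moved, to 3044, 1739, 0, 129 and 823 in the same order. For lithium against fluoxetine the main fit had called 42 genes in WT and 100 in HT. With the olfactory covariate the member calls were 9 for fluoxetine in WT, 3 for its sex difference and 2 for lithium against fluoxetine in WT, beside 3014, 1804 and 564 over all genes. edgeR gave 2 for fluoxetine in WT and 0 for its sex difference, beside 922 and 1353 over all genes. The cause was not tested. Fits on fewer libraries also hold fewer samples, and their counts moved in both directions.

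Replicate numbers did not pair the samples: deviations of same-numbered libraries had a median correlation of -0.0027, and 10 of 56 libraries correlated best with their own number. With the replicate block the counts were 2 for fluoxetine in WT and 2 for its sex difference, beside 945 and 1407 over all genes. The Cplx1 call under lithium in HT was lost in that limma fit (0.16, adjusted p = 0.0624).

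Leaving out 1 library at a time gave 3 to 7 calls for lithium in WT, 3 to 7 for lithium in HT, 0 to 4 for fluoxetine in WT, 0 to 8 for its sex difference, 0 to 1 for HT against WT under fluoxetine, and 0 in the other comparisons. Shares over all genes are not set beside these counts, so their changes are not read as particular to the members. The WT lithium count was 3 without WT lithium female replicates 2 or 4 or male replicate 4, and the HT count was 3 without HT vehicle male replicate 1 and 4 without replicate 3. The fluoxetine count in WT was 0 without WT fluoxetine female replicate 2, WT vehicle female replicates 3 or 4 or WT vehicle male replicate 4. It was 4 without WT fluoxetine female replicate 1 and 2 without WT fluoxetine female replicate 4 or WT vehicle male replicate 2. Its sex difference was 0 without WT fluoxetine female replicates 1, 2 or 4, WT fluoxetine male replicate 1, WT vehicle female replicates 1 or 3, or WT vehicle male replicates 1, 3 or 4. It was 8 without WT fluoxetine female replicates 3 or 5, 4 when replicate 2 of the WT vehicle males was left out, 3 for replicate 2 of the WT vehicle females, and 2 for replicate 4 of the WT fluoxetine males or replicate 5 of the WT vehicle females. Cplx1 lost its HT lithium call without any of 11 of 17 libraries, Rims2 without any of 8 and Unc13b without any of 5. Unc13a lost it without HT vehicle male replicate 1. In WT, Pclo lost its call without any of 9 of 19 libraries, Synj1 without any of 5 and Unc13b without any of 3. Depth limits little here, since every member had at least 144 reads in every library.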
